A study of Danio rerio with 2 samples.

Results

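Claudin genes were examined in RNA sequencing of dissected zebrafish (Danio rerio) hearts taken 96 hours post fertilisation. There was 1 library per genotype. The nju18-labelled library came from foxc1a nju18 fish, nju18 being an allele of this forkhead transcription factor gene, and the TU-labelled library from wild-type TU fish. Whether hearts were pooled, and how many, the sources used here do not say. All gene rows whose symbol begins with cldn were taken, which gave 35 of the 32057 rows in the count table. Of these, 33 encode claudins proper and cldnd1a and cldnd1b encode claudin domain containing proteins, which are more distant relatives. The rule used symbols only and no measured value, though it was set with earlier results of these data known.

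Claudins are small membrane proteins that span the membrane several times and form the strands of tight junctions, the seals between neighbouring cells of epithelia and endothelia. Some claudins close the space between cells to ions and solutes, and others form pores in it that let particular ions through, so the set a tissue uses shapes what its cell layer lets pass. Claudin-5 proteins are known from endothelium, though not only from there, and most other family members from skin, gut, kidney, ear or myelinating glia.

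The nju18-labelled library held 17467109 counted reads and the TU-labelled library 20049851. The targeted gene was present in both, with 798 foxc1a reads in the nju18-labelled and 629 in the TU-labelled library (50.5 and 28.4 CPM, reads scaled to a common library size), so its level does not check the labels, and directions below are those of the labels. The 8 listed cardiomyocyte markers were all above 5 CPM in both libraries and summed to 18938 CPM in the nju18-labelled and 7992 CPM in the TU-labelled library. Markers of gut, liver, skin and nerve were read too, and their values are given with the claudins. Nuclear ribosomal RNA took 0.0436% of reads in the nju18-labelled and 0.485% in the TU-labelled library. With 1 library per genotype there is no replicate spread and no test between genotypes. The 95% intervals given for ratios and shares are exact (Clopper-Pearson) and cover counting error only.

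The claudin family split into members that were higher and members that were lower in the nju18-labelled library. The claudin-15 genes cldn15a, cldn15lb, cldn15la and cldn15b were higher, together with cldnc. The genes cldn5b, cldn23a, cldn23b, cldne, cldnf and cldnd1b were lower. A gene is called higher or lower where the log2 ratio of CPM, with 1 CPM added to each library and trimmed-mean (TMM) scaling, was at least 2-fold, and where it had 5 CPM or more in either library. By this rule 5 of 22 measured claudins were higher (22.7%), against 9.61% of all 12259 genes measured, and 6 of 22 were lower (27.3%), against 11.1% of all genes. The 2 directions together took 11 of 22 claudins (50.0%) and 20.7% of all genes. The median claudin log2 ratio was -0.42 and that of all genes 0.04. Log2 ratios were below 0 for 16 of 22 claudins, against 47.6% of all genes. Whole dissected hearts were sequenced, so fewer cells of a type and less RNA per cell cannot be told apart in any of these values.

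**Figure D1:**
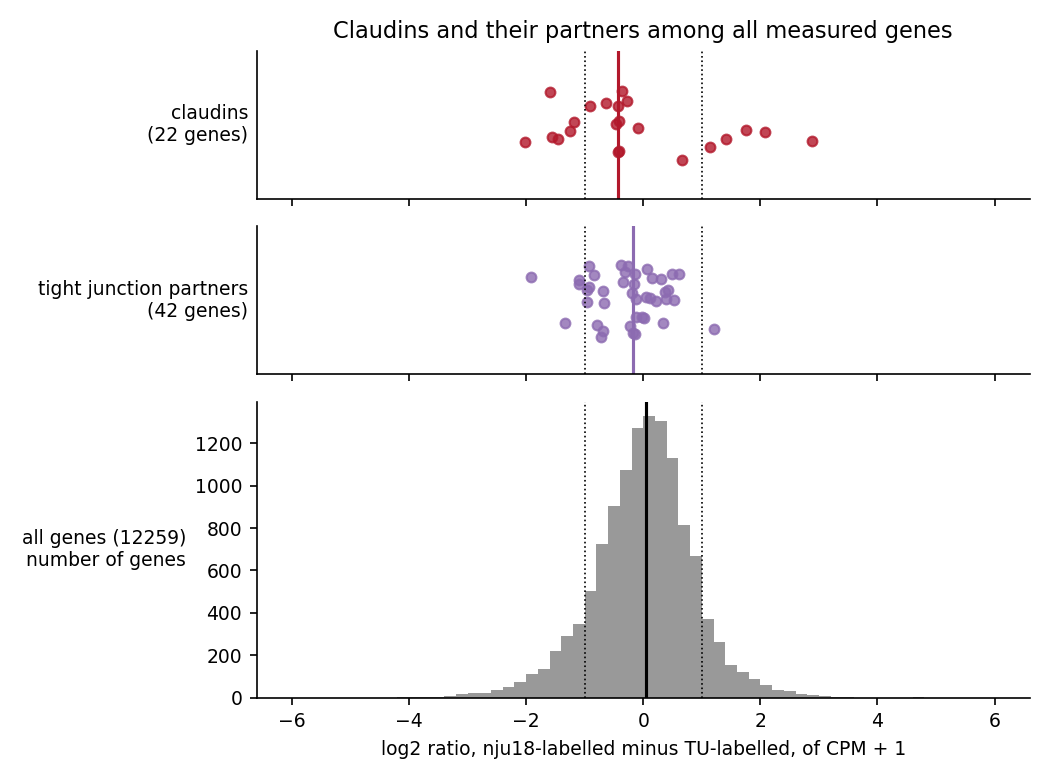
Log2 ratios, nju18-labelled minus TU-labelled, of 22 claudins (top, points), 42 tight junction partner genes (middle, points) and all 12259 genes with at least 5 CPM in 1 library (bottom, histogram; the vertical axis counts genes). Solid lines mark the medians (-0.42, -0.17 and 0.04), dotted lines mark 2-fold, and vertical scatter of the points has no meaning. Claudins lie on both sides of the dotted lines, 5 above and 6 below.

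Of the 35 claudin rows, 32 had 10 reads or more in at least 1 library and 3 were undetected by that measure. The undetected genes were cldn7a and cldn18, with 0 reads in both libraries, and cldn10a, with 0 reads in the nju18-labelled and 4 in the TU-labelled library. A count of 0 allows up to 3 reads, or 0.190 CPM in the nju18-labelled and 0.135 CPM in the TU-labelled library. The row just inside the read threshold was cldnd, with 10 and 0 reads. With cldnd, 10 of the 32 detected rows stayed under 5 CPM in both libraries.

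Claudin reads made up 0.172% (interval 0.170% to 0.173%) of the nju18-labelled library and 0.246% (interval 0.244% to 0.249%) of the TU-labelled library. These are shares of all counted reads. With TMM scaling the claudins summed to 1897 CPM in the nju18-labelled and 2227 CPM in the TU-labelled library, a ratio of 0.852. On this scale the summed CPM of all genes had a ratio of 1.22. Summed CPM here and below are therefore not shares of an equal total. cldnb, known in zebrafish from skin and the migrating lateral line primordium, had the highest level per length in both. Its deposited FPKM (reads scaled for gene length and library total) was 407 in the nju18-labelled and 642 in the TU-labelled library. It took 26.3% (interval 25.8% to 26.8%) of nju18-labelled claudin reads and 28.8% (interval 28.4% to 29.2%) of TU-labelled ones. The order below cldnb differed between the libraries. By FPKM cldn15la (234), cldn1 (124), cldnh (101) and cldne (83.3) followed in the nju18-labelled library. In the TU-labelled library cldne (233), cldnh (132), cldn5b (115) and cldn23a (106) came next. The claudin-15 genes took 21.6% (interval 21.1% to 22.04%) of claudin reads in the nju18-labelled library and 4.54% (interval 4.36% to 4.73%) in the TU-labelled library.

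**Figure D2:**
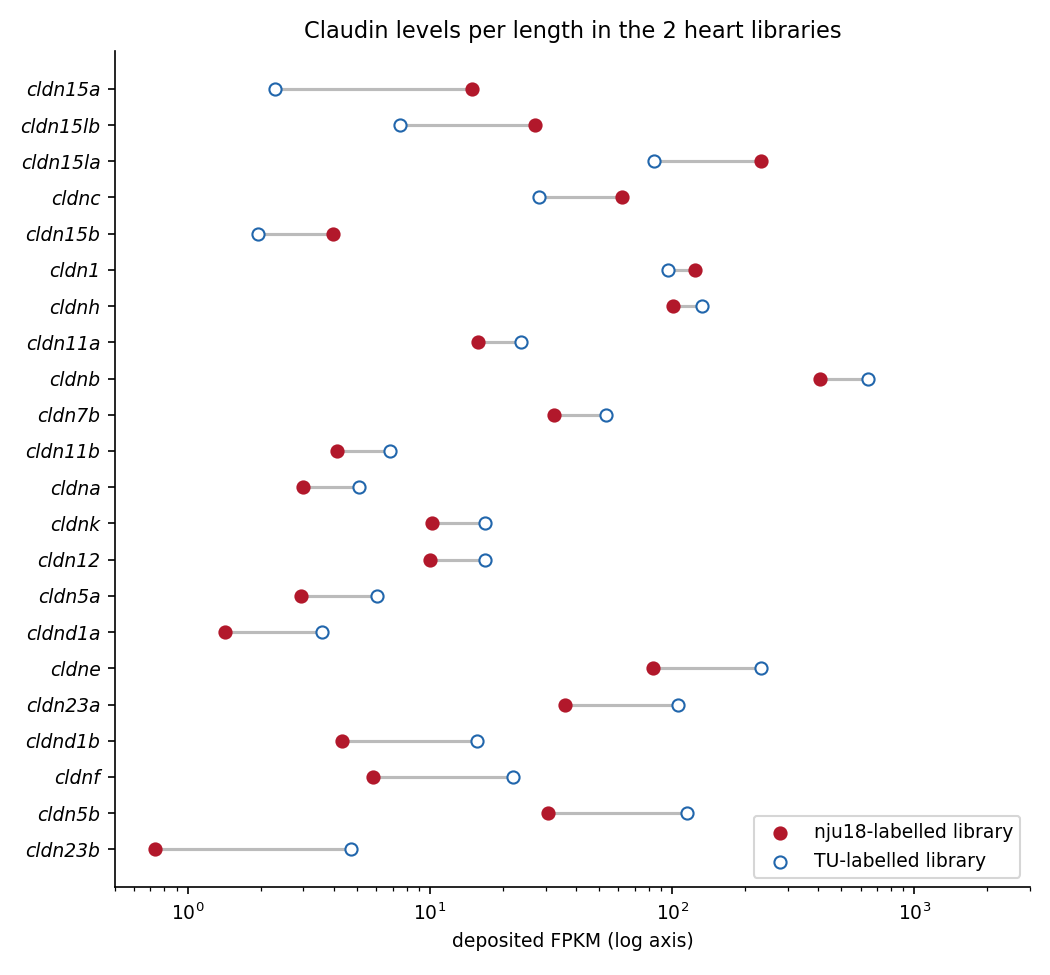
Deposited FPKM (log axis) of the 22 claudin genes with at least 5 CPM in 1 library, 1 row per gene in order of log2 ratio. Filled red points are the nju18-labelled library, open blue points the TU-labelled library, and grey lines join the same gene. cldnb is farthest right in both libraries (407 and 642 FPKM), and the top 6 genes have the filled point to the right.

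All 4 claudin-15 genes were higher in the nju18-labelled library by the 2-fold rule, against 9.61% of all genes. In mammals claudin-15 forms a sodium-permeable pore between cells of the intestinal lining, and in zebrafish cldn15la is used as a marker of intestinal epithelium. cldn15a (ENSDARG00000112049) had 1455 reads (92.1 CPM) in the nju18-labelled library and 257 reads (11.6 CPM) in the TU-labelled library. Its ratio of 7.95 (interval 6.96 to 9.11) was the highest of the 22 measured claudins. cldn15lb (ENSDARG00000100844) had 1044 reads (66.1 CPM) in the nju18-labelled and 332 reads (14.97 CPM) in the TU-labelled library, a ratio of 4.42 (interval 3.90 to 5.01). These intervals do not overlap each other, but they cover counting error only. cldn15la (ENSDARG00000016081), the most abundant claudin-15 gene, had 3811 reads (241 CPM) against 1567 reads (70.7 CPM) in the TU-labelled library. Its ratio was 3.41 (interval 3.22 to 3.62). cldn15b (ENSDARG00000101109) was the least abundant, with 153 reads (9.69 CPM) in the nju18-labelled and 86 reads (3.88 CPM) in the TU-labelled library. Its ratio of 2.50 had an interval of 1.91 to 3.29, which reaches under 2-fold, and with total-count scaling its log2 ratio was 0.88, short of the 2-fold rule.

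Marker genes of several tissues had higher sums in the same library as the claudin-15 genes. The 8 listed intestinal markers summed to 1213 CPM in the nju18-labelled and 427 CPM in the TU-labelled library, a ratio of 2.84, beside 4.05 for the summed claudin-15 genes (409 and 101 CPM). Of these 8 markers 4 were at least 2-fold higher and 1 was lower, against 9.61% and 11.1% of all genes. The higher ones were the intestinal transcription factor gene cdx1b (56.9 CPM in the nju18-labelled and 10.9 CPM in the TU-labelled library), the brush border peptidase gene anpepb (200.2 and 38.6 CPM), the cadherin gene cdh17 (227 and 49.2 CPM) and the brush border gene vil1 (593 and 178 CPM). The lower one was the bile acid binding gene fabp6, at 4.62 CPM in the nju18-labelled and 70.4 CPM in the TU-labelled library. All 8 cardiomyocyte markers had ratios above 1, and 5 of them were at least 2-fold higher, with a median log2 ratio of 1.42 beside 1.33 for the intestinal list. All 6 listed liver markers had ratios above 1 as well, with 371 and 174 CPM summed. Among all genes 47.6% had log2 ratios below 0. The 5 listed pronephros genes summed to 233 and 56.3 CPM, of which cdh17, also on the intestinal list, made up most. The others did not share its difference. pax2a had 5.64 and 5.05 CPM, slc20a1a 0.633 and 0.586 CPM, slc12a3 0.253 and 1.44 CPM, and hnf1ba 0 reads in both libraries. The part of gut, liver or heart muscle RNA in the claudin values was not tested.

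Claudin genes that lie next to each other did not all move alike. RefSeq, in its GRCz12tu annotation, places cldnh (named cldn3c there), cldnc (cldn3d), cldnb and cldnd in 1 run of 7 neighbouring claudin genes. In mammals claudin-3 is a barrier-forming claudin of many epithelia. cldnc (ENSDARG00000015955) had 2012 reads (127 CPM) in the nju18-labelled and 1043 reads (47.0 CPM) in the TU-labelled library, a ratio of 2.71 (interval 2.51 to 2.92). Its neighbours were on the other side of 1. cldnh had 3566 reads (226 CPM) in the nju18-labelled and 5358 reads (242 CPM) in the TU-labelled library, a ratio of 0.935 (interval 0.896 to 0.975). cldnb had 7873 reads (499 CPM) in the nju18-labelled and 14240 reads (642 CPM) in the TU-labelled library, a ratio of 0.776 (interval 0.755 to 0.798). Both differences are far short of 2-fold. cldnd had 10 reads in the nju18-labelled library and 0 in the TU-labelled library, which is at least 4.68-fold higher when 3 reads are put in place of 0, with the 10 reads taken as exact. The lower end of its counting interval was 3.15.

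In the run of cldnj, cldne, cldnf and cldna, 2 of the 3 measured genes were lower, against 11.1% of all genes. cldne is known in zebrafish from the enveloping layer, the outer sheet of the early embryo, and cldnj from the ear, where it is needed for otoliths. cldne (ENSDARG00000043128) had 3029 reads (192 CPM) in the nju18-labelled and 9735 reads (439 CPM) in the TU-labelled library, and was 2.29 times lower (interval 2.20 to 2.38). cldnf (ENSDARG00000043133) had 188 reads (11.9 CPM) against 819 reads (36.9 CPM) in the TU-labelled library, and was 3.10 times lower (interval 2.64 to 3.66). Both of these neighbours passed the 2-fold rule. cldna had 101 reads (6.40 CPM) in the nju18-labelled and 198 reads (8.93 CPM) in the TU-labelled library, a ratio of 0.716 (interval 0.558 to 0.915). cldnj had 12 reads in the nju18-labelled and 14 in the TU-labelled library, a ratio of 1.20 with an interval that holds 1 (0.509 to 2.80).

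Both genes of the neighbouring pair cldn23a and cldn23b were lower, against 11.1% of all genes. cldn23a (ENSDARG00000028096) had 1226 reads (77.6 CPM) in the nju18-labelled and 4118 reads (186 CPM) in the TU-labelled library, and was 2.39 times lower (interval 2.24 to 2.55). cldn23b (ENSDARG00000103703) had 40 reads (2.53 CPM) against 297 reads (13.4 CPM) in the TU-labelled library, and was 5.29 times lower (interval 3.79 to 7.55), the lowest ratio among the 22 measured claudins. RefSeq calls these genes cldn23.1 and cldn23.2.

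Epidermal markers went both ways beside these genes, whereas most ionocyte markers had ratios below 1. Among the 10 listed epidermal genes, of which 8 were measured, the keratin genes cyt1 (4931 CPM in the nju18-labelled and 1542 CPM in the TU-labelled library) and krt91 (5433 and 1818 CPM) were higher. agr2, which is used by mucus-secreting cells, was lower (197 and 500 CPM). By the 2-fold rule 9.61% of all genes were higher and 11.1% lower. krt4 had 1311 CPM in the nju18-labelled and 1794 CPM in the TU-labelled library, and the basal epidermal gene tp63 had 18.2 and 26.8 CPM. The epidermal list summed to 14089 and 7455 CPM, a difference carried by cyt1 and krt91. The ionocyte list of 7 genes summed to 329 and 633 CPM. Of its 6 measured genes 1 had a ratio above 1, and their median log2 ratio was -0.90. Most of the ionocyte difference lay in the ammonium transporter gene rhcga, at 22.7 CPM in the nju18-labelled and 254 CPM in the TU-labelled library. rhcga was the 1 measured ionocyte gene past 2-fold, against 20.7% of all genes in either direction. The part of skin cells in the claudin values was not tested.

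cldn5b, a claudin of zebrafish vascular endothelium, was lower, and the measured endothelial markers were within 2-fold. cldn5b (ENSDARG00000014059) had 885 reads (56.0 CPM) in the nju18-labelled library and 3794 reads (171 CPM) in the TU-labelled library, and was 3.05 times lower (interval 2.84 to 3.29). Of 10 listed endothelial markers 9 were measured, and none of them was 2-fold higher or lower, against 20.7% of all genes. The endothelial list summed to 791 CPM in the nju18-labelled and 644 CPM in the TU-labelled library with TMM scaling, a ratio of 1.23. On this scale the summed CPM of all genes had nearly the same ratio, 1.22. Of the 7 measured markers with a ratio above 1, egfl7 (1.29), fli1a (1.18) and cdh5 (1.05) stayed above 1 with total-count scaling. The others, she (0.977), esama (0.909), kdrl (0.880) and tek (0.834), were then below 1, and the ratio of cldn5b was 0.268. cdh5, the cadherin of endothelial junctions, had 326 CPM in the nju18-labelled and 253 CPM in the TU-labelled library, while pecam1 had 34.9 and 53.8 CPM. The paralog cldn5a, which in zebrafish seals the lining of the brain ventricles, was less abundant. It had 80 reads (5.07 CPM) in the nju18-labelled and 188 reads (8.48 CPM) in the TU-labelled library, a ratio of 0.597 (interval 0.454 to 0.780), within 2-fold. The part of endothelial cells in the cldn5b and cldn5a values was not tested.

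**Figure D3:**
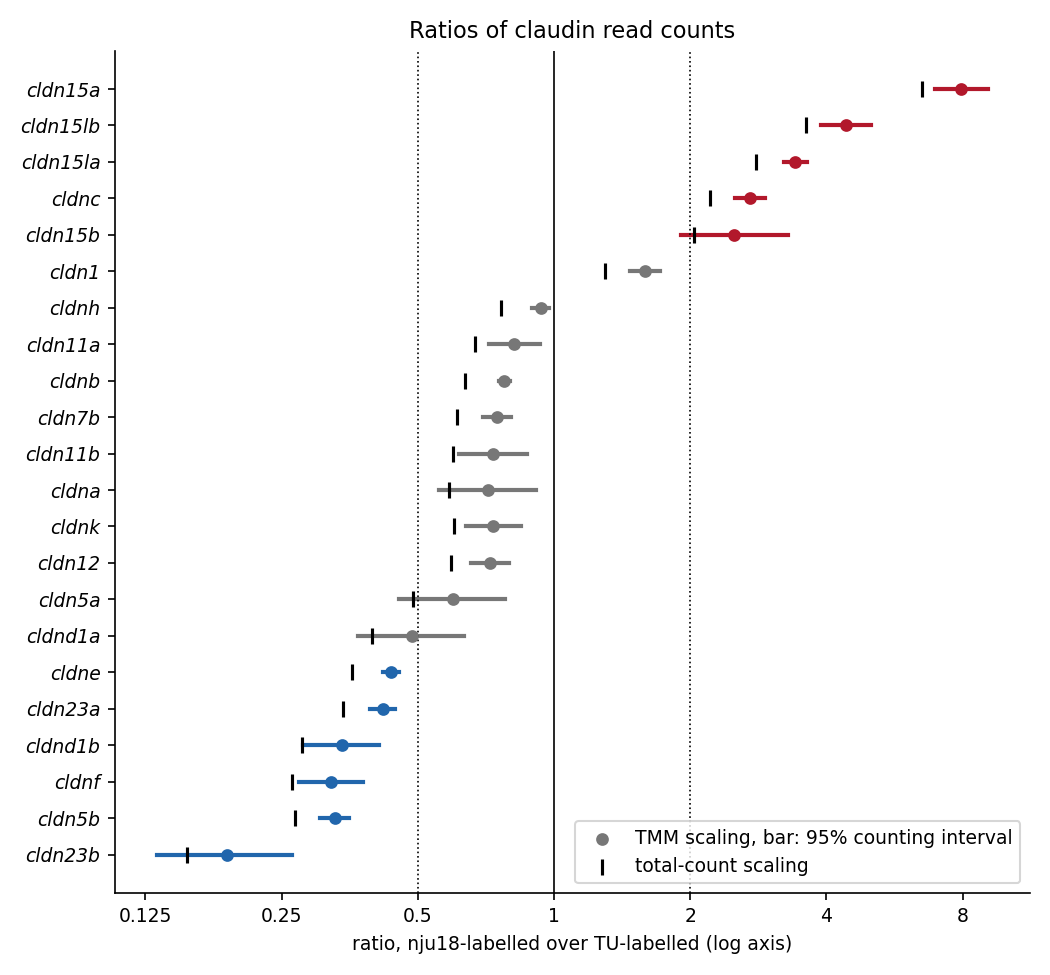
Ratio of the nju18-labelled over the TU-labelled library (log axis) for the 22 measured claudins, 1 row per gene. Points use TMM scaling and bars are 95% counting intervals, with red for at least 2-fold higher, blue for at least 2-fold lower (both with 1 CPM added) and grey for neither; black ticks use total-count scaling. All 22 counting intervals lie on 1 side of 1, from cldn15a at 7.95 to cldn23b at 0.189.

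Of the claudin domain containing genes, 1 of 2 was lower by the 2-fold rule, against 11.1% of all genes. cldnd1b (ENSDARG00000052386) had 136 reads (8.61 CPM) in the nju18-labelled and 563 reads (25.4 CPM) in the TU-labelled library, and was 2.95 times lower (interval 2.44 to 3.58). cldnd1a had 75 reads (4.75 CPM) against 217 reads (9.79 CPM) in the TU-labelled library. Its ratio was 0.485 (interval 0.368 to 0.634), but with 1 CPM added its log2 ratio was -0.91, just short of the 2-fold rule, which it passed with total-count scaling (-1.16).

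cldnk and the claudin-11 genes differed by less than 2-fold. cldnk marks myelinating glia in zebrafish, and claudin-11 is a myelin claudin of mammals. cldnk had 307 reads (19.4 CPM) in the nju18-labelled and 587 reads (26.5 CPM) in the TU-labelled library, a ratio of 0.734 (interval 0.638 to 0.845). The ratio of cldn11a was 0.818 (23.05 and 28.2 CPM) and that of cldn11b was 0.733 (12.9 and 17.6 CPM). The neuron and glia list of 9 genes summed to 209 CPM in the nju18-labelled and 348 CPM in the TU-labelled library. By the 2-fold rule 1 of its 7 measured genes was higher and 2 were lower, against 9.61% and 11.1% of all genes. The higher one was the glial filament gene gfap (41.7 CPM in the nju18-labelled and 19.9 CPM in the TU-labelled library), and the lower ones were the synaptic genes snap25b (13.2 and 67.2 CPM) and snap25a (14.5 and 37.4 CPM). The myelin gene mbpa had 22.9 and 36.2 CPM. The listed gene olig2, under 5 CPM in both libraries, had 8 reads in the nju18-labelled and 73 in the TU-labelled library. Of the 7 measured genes 1 had a ratio above 1. Their median log2 ratio was -0.64, beside 0.04 for all genes. The part of nerve tissue was not tested.

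cldn7b, cldn12 and cldn1 completed the measured set. cldn7b, whose mammalian counterpart lies along the sides of epithelial cells, had 1179 reads (74.7 CPM) in the nju18-labelled and 2213 reads (99.8 CPM) in the TU-labelled library, a ratio of 0.748 (interval 0.696 to 0.803). cldn12 had 620 reads (39.3 CPM) against 1204 reads (54.3 CPM) in the TU-labelled library, a ratio of 0.723 (interval 0.655 to 0.797). cldn1, whose mammalian counterpart is needed for the water barrier of the skin, was the 1 gene within 2-fold with a ratio above 1. It had 1374 reads (87.0 CPM) in the nju18-labelled and 1215 reads (54.8 CPM) in the TU-labelled library, a ratio of 1.59 (interval 1.47 to 1.72).

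Most of the low claudins could not be told apart between the libraries at this depth. Among the 10 detected rows under 5 CPM, cldn2 had 35 reads (2.22 CPM) in the nju18-labelled and 81 reads (3.65 CPM) in the TU-labelled library, a ratio of 0.607 (interval 0.396 to 0.912). In mammals claudin-2 forms a pore for cations and water. cldn19 had 37 and 62 reads and cldni 53 and 66 reads, with intervals that hold 1. The other 6, without cldnd, were cldn10b, cldn10l2, cldn17, cldn34a, cldng and cldnj, with 6 to 35 reads in a library, and for 5 of these 6 the interval held 1. The exception was cldn34a (31 and 20 reads, ratio 2.18, interval 1.20 to 4.03).

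RefSeq gives a claudin name to 8 further rows that the count table lists under clone-based symbols. They are not counted above. Only zgc:110333 (cldn8.2 in RefSeq) and zgc:136892 (cldn30) reached 5 CPM, and both had lower values in the nju18-labelled library. zgc:110333 had 830 reads (52.6 CPM) there and 2286 reads (103 CPM) in the TU-labelled library, a ratio of 0.510 (interval 0.470 to 0.552). zgc:136892, a member of the same run as cldnb and cldnc, had 264 reads (16.7 CPM) in the nju18-labelled and 858 reads (38.7 CPM) in the TU-labelled library, a ratio of 0.432 (interval 0.375 to 0.497).

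**Figure D4:**
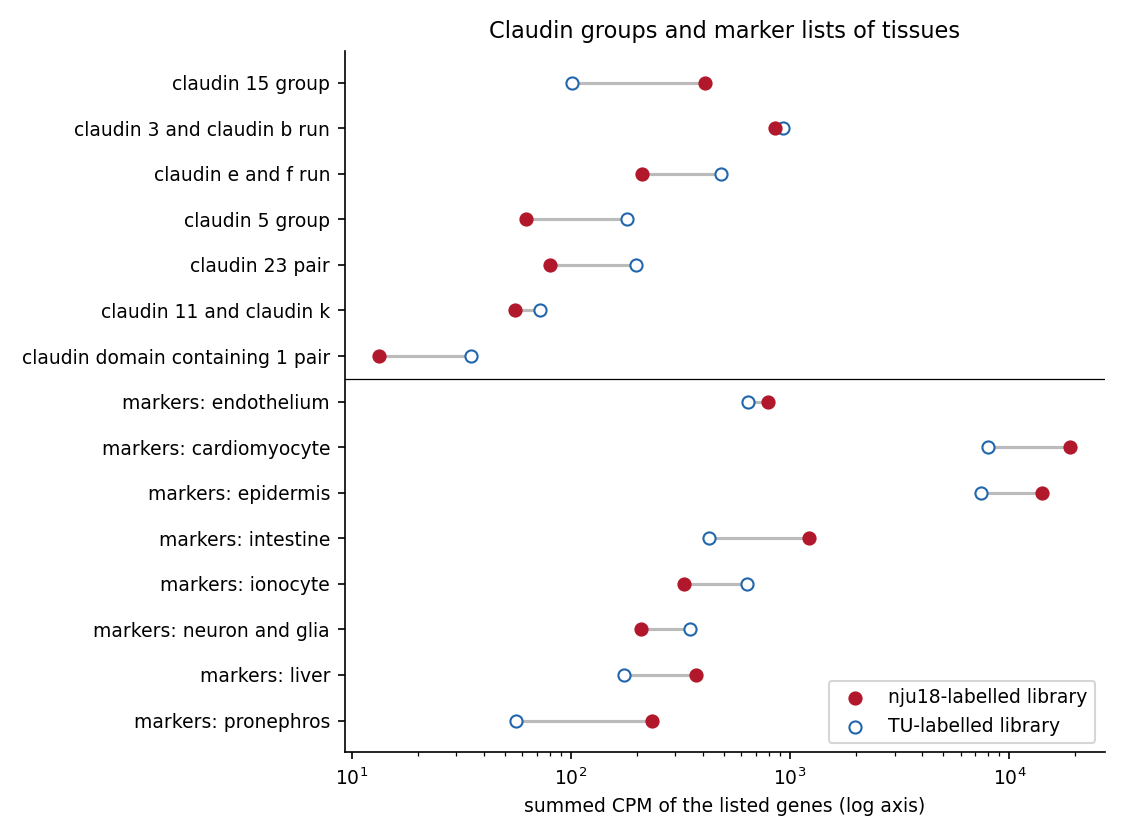
Summed CPM (log axis) of claudin groups (above the line) and of marker lists of tissues (below it). Filled red points are the nju18-labelled library and open blue points the TU-labelled library. The claudin-15 group (409 and 101 CPM) and the intestinal list (1213 and 427 CPM) both have the filled point to the right. So do the cardiomyocyte, epidermal, liver, pronephros and endothelial lists. With TMM scaling, used here, the claudin-5 group (cldn5a, cldn5b and cldng, 62.2 and 181 CPM) and the endothelial list (791 and 644 CPM) differ in direction. The endothelial ratio of 1.23 is near the 1.22 of all genes summed on this scale. Several endothelial markers have ratios below 1 with total-count scaling.

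Genes of the other tight junction proteins, the scaffolds, polarity proteins and adhesion molecules that work with claudins, were mostly within 2-fold. Of 57 listed partner symbols 50 were matched and 42 were measured. Of these 1 was at least 2-fold higher (2.38%, against 9.61% of all genes) and 4 were lower (9.52%, against 11.1%), with a median log2 ratio of -0.17. Scaled by total count, 0 partners were higher (5.69% of all genes were) and 10 were lower (17.6% of all genes were). The higher gene was cgnl1, which encodes the junctional scaffold paracingulin, at 89.2 CPM in the nju18-labelled and 38.1 CPM in the TU-labelled library. The lower ones were the polarity protein gene crb3b (6.21 and 26.2 CPM), the nucleotide exchange factor gene arhgef2 (2.66 and 8.25 CPM), the atypical protein kinase gene prkci (57.8 and 124.7 CPM) and the junctional adhesion molecule gene jam3a (4.24 and 10.19 CPM). Next in size came ildr1a, of junctions where 3 cells meet, and the membrane protein genes marveld3 and marveld1, with log2 ratios of -0.96, -0.96 and -0.93. The core scaffold genes stood nearer to 1. tjp1a, which encodes a ZO-1 scaffold, had 164 CPM in the nju18-labelled and 129 CPM in the TU-labelled library, a ratio of 1.27, and tjp1b a ratio of 1.42 (99.3 and 70.1 CPM). The occludin genes oclna (122 and 137 CPM) and oclnb (56.1 and 73.2 CPM) had ratios of 0.896 and 0.767.

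The authors' deposited table, named for EBSeq, held 33 of the 35 claudin rows and called 4 of them higher and 3 lower, against 4.24% and 7.63% of all rows in that table. It called cldn15a (log2 fold change 2.96, FDR 1.3e-08), cldn15lb (2.11, FDR 0.000271), cldn15la (1.74, FDR 0.0144) and cldnd (FDR 0.00400) higher. The log2 fold change of cldnd in the authors' deposited table, 10.19, rests on 10 reads against 0 with 0.01 added. Its lower calls were cldn23b (-2.44, FDR 0.000144), cldnf (-1.67, FDR 0.0288) and cldnd1b (-1.60, FDR 0.0458). So the authors' deposited table called 3 of the 5 claudins that were 2-fold higher and 3 of the 6 that were 2-fold lower. It did not call cldn5b (FDR 0.0530), cldn23a (FDR 0.395) or cldne (FDR 0.592), nor cldnc (FDR 0.154) and cldn15b (FDR 0.202). Of the partner genes the authors' deposited table called crb3b (FDR 0.00106) and arhgef2 (FDR 0.0400) lower and 0 higher.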

How the data were processed

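The authors deposited raw counts per Ensembl gene for each library, FPKM values, and a comparison table. Tools named in the submitters' processing notes are HISAT2, featureCounts, Trimmomatic and bcl2fastq, and the build is GRCz11, with no versions or roles. The sources used here do not state strand or multi-mapping settings, so close claudin copies are uncertain. The deposited comparison table holds a normalised signal (each count divided by 0.854 for the nju18-labelled and 1.17 for the TU-labelled library), a fold ratio with 0.01 added to each value, its log2, and an FDR (a q-value) per the file headers. The sources used here do not say how that FDR was derived without replicates.

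Counts were scaled here with TMM factors of 0.904 (nju18-labelled) and 1.11 (TU-labelled) (edgeR 4.0.16, R 4.3.3). A log2 ratio is nju18-labelled minus TU-labelled log2(CPM + 1), a scale that understates differences of low genes, whereas ratios and times lower have no CPM added. Intervals came from scipy 1.17.1 in Python 3.11.15. Reads carry no molecular identifiers that the sources mention, so intervals may be too narrow even for counting error. With 1 library per genotype they hold no spread between libraries, and do not serve for statements on genotypes. All claudins with at least 5 CPM in 1 library were named, as were lower ones at 2 CPM or more or called by the authors. Others were named after their values were seen: the undetected genes, the remaining low genes and those under clone-based symbols. So were marker genes beyond 2 per list. Of the partner genes, the 8 with the largest absolute log2 ratios and 4 scaffold and occludin genes were named. A further marker list is not reported here. Members, lists and groups were chosen with earlier results of these data known. Alternatives were scaling by total count or by DESeq2 1.42.0 size factors, adding 0.25 or 5 CPM, other filters, the deposited FPKM and other fold rules. The calculations were tested on simulated data.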

Additional observations from a re-analysis of the deposited data

How the results depend on the processing

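No paired analysis was possible because there is 1 library per genotype. For the same reason no replicate could be left out. The counts of 5 higher and 6 lower claudins stayed between 4 and 6 higher and between 5 and 8 lower under the alternatives other than a 4-fold rule, which left 2 higher and 1 lower. Total-count scaling moved the median of all genes by -0.31, and the claudin median was then -0.70; with the deposited FPKM, which scale by total count, it was -0.67. No claudin at 5 CPM or more changed direction under total-count scaling. Among the low rows 2 did, cldni and cldnj. The partner genes depended more on settings. They gave 0 higher, 10 lower and a median of -0.45 with total-count scaling, and 0 higher and a median of -0.44 with FPKM. With 5 CPM added 2 partners were lower, and with a 20 CPM filter 2 were lower. A 1.5-fold rule gave 2 higher and 14 lower partners, and a 4-fold rule 0 and 0. Of the authors' 3 lower claudin calls, 1 had an FDR under 0.01 and 1 an absolute log2 fold change of 2 or more. Leaving out cldnd1a and cldnd1b, or adding the rows with clone-based symbols, both chosen after seeing the data, left 5 higher claudins with 5 or 7 lower. The 3 undetected claudin rows do not resolve a difference at this depth. Among the clone-based symbols si:dkey-221l4.11 had 6 reads in the nju18-labelled and 0 in the TU-labelled library, with 1.65 as the lower end of its interval.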
